A study of Mus musculus with 6 samples.

Results

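The 10 genes described here build fatty acids and put double bonds into them: Acly, Acaca, Fasn, Me1, Elovl6, Scd1, Scd2, Fads1 and Fads2, together with Srebf1, which encodes a transcription factor of the pathway. They were taken by name from the 24062 genes counted in RAW264.7 macrophages, and all 10 had at least 10 counts in at least 3 libraries. RAW264.7 is an established mouse macrophage line, although the labels give bone marrow as the tissue. Each of the 6 conditions had 1 library of RNA pooled from 5 wells. M0 cells were not polarized. M1 cells received lipopolysaccharide (LPS, 100 ng/mL) and interferon-γ (20 ng/mL) for 24 h, and M2 cells were given IL-4 at 20 ng/mL over the same 24 h. RM0, RM1 and RM2 cells had the same states, were then exposed to 10 Gy of γ-rays from a 137Cs source and were kept for 24 h more. Whether the non-irradiated cells were kept for the same extra time is not stated in the sources used here, so irradiation and that time cannot be told apart. The libraries held 18246280 (M0), 18472101 (M1), 17894937 (M2), 18660435 (RM0), 18870516 (RM1) and 18154365 (RM2) counts.

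In the cytosol, ATP citrate lyase (Acly) cuts citrate into acetyl-CoA and oxaloacetate, acetyl-CoA carboxylase 1 (Acaca) turns acetyl-CoA into malonyl-CoA, and fatty acid synthase (Fasn) joins these units into palmitate at the expense of NADPH, part of which malic enzyme 1 (Me1) supplies. Elovl6 lengthens palmitate, the stearoyl-CoA desaturases (Scd1, Scd2) make monounsaturated fatty acids, and Fads1 and Fads2 are the delta-5 and delta-6 desaturases of the polyunsaturated series. SREBP-1, the product of Srebf1, switches on genes of this pathway together with the factors NF-Y and Sp1, and macrophages remodel their lipids when LPS activates them.

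Fasn was the member that moved farthest: M1 and RM1 held fewer Fasn reads than the other 4 libraries. Acly, Scd2 and Srebf1 were higher in the M1 state with TMM scaling of the libraries, but these rises did not pass the test when libraries were scaled by their totals. IL-4 and irradiation left every member within 2-fold. Nos2, the inducible nitric oxide synthase of the M1 state, was highest in the libraries labelled M1 and RM1, at 14393, 169925, 10749, 22038, 129631 and 14987 counts in M0, M1, M2, RM0, RM1 and RM2 (the order used for every run of 6 values). The IL-4 markers Chil3 and Retnla were at 0 in all 6 libraries. Of 8 macrophage markers, Mertk stayed at or below 8 counts, while Lyz2 had the most counts and took 2.57%, 1.08%, 2.27%, 3.11%, 1.48% and 2.74% of the libraries.

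Promoter windows of 300 bases (250 before to 50 after a gene's start; RefSeq, GRCm38.p6) were at hand for 7 of the 10 genes, with 10 windows in all. Those of Fasn, Acly and Srebf1 are shown because these genes took different directions in M1 with TMM scaling. Capitals mark CCAAT (the NF-Y box) and GGGCGG (the Sp1 box) on either strand, read 5′ to 3′, where ATTGG and CCGCCC are the same boxes on the other strand.
Fasn, minus strand, chr11:120824498-120824797: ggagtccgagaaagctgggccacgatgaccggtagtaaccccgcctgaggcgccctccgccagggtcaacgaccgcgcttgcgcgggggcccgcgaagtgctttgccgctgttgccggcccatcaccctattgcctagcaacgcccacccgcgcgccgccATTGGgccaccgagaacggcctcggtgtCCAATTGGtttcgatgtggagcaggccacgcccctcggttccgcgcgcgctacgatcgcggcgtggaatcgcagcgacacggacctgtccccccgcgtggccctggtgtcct
Acly, minus strand, chr11:100527951-100528250: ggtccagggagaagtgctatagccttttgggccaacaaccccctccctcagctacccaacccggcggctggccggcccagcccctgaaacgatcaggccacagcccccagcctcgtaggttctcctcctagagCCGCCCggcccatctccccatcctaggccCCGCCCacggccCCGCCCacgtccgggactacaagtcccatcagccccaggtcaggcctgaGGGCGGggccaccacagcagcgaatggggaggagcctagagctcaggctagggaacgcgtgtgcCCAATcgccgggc
Srebf1, minus strand, chr11:60220578-60220877: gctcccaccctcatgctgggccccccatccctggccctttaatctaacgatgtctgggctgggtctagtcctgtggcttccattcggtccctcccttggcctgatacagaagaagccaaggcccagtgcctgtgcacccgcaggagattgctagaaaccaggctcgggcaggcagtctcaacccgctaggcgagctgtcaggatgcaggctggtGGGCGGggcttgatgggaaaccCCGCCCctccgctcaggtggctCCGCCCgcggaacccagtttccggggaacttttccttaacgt
The Fasn window held 3 CCAAT matches, whose first bases lay 90, 62 and 59 bases before the start. The latter matches overlap in the run CCAATTGG. The Acly window held 4 GGGCGG matches and 1 CCAAT match, and the Srebf1 window, the one closest to the start listed in the files among 3 for this gene, held 3 GGGCGG matches. The Srebf1 windows not shown each held 1 CCAAT match, and that at chr11:60210422-60210721 also held 2 GGGCGG matches. Among all 32851 promoter windows, 37.41% held CCAAT and 35.66% held GGGCGG. In the 10 windows of the group, each box was found in 5 windows of 4 genes. None of the 10 held the sterol regulatory element TCACNCCAC, the E-box CACGTG or the LXR element (AGGTCA, any 4 bases, AGGTCA) on either strand. These were in 1.242%, 7.15% and 0.01522% of all windows. The matches describe letters in these windows and do not show binding. Scd1, Scd2 and Fads1 have no window here.

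The level of each gene was compared per length, as reads per kilobase of the listed RefSeq transcript and per TMM-scaled library size (RPKM). Scd2 had the highest mean level (79.8 RPKM, 59.4 to 108.1 over the 6 libraries), followed by Acly (69.0, 56.0 to 87.9) and Fads1 (38.2, 33.4 to 43.8). The ranges of Scd2 and Acly overlapped, and both lay above that of Fads1. Srebf1 (17.0 RPKM), Fads2 (15.2 RPKM) and Me1 (13.2 RPKM) came next, with overlapping ranges. Fasn averaged 9.29 RPKM, Scd1 7.58 RPKM and Acaca 6.02 RPKM, again with ranges that overlapped between neighbours. Elovl6 was the lowest (2.38 RPKM, 1.83 to 2.94), below the range of every other member. Together the 10 genes took between 0.11% (M1) and 0.131% (RM0 and RM1) of a library's counts. Reads of 5 members could be shared with other genes. Of the 100-base windows of the transcript, 42.8% recur in Gm5182 for Acaca and 14.5% in Gm7049 or Gm7329 for Me1. The shares were 2.66% for Scd1 and 0.896% for Scd2, which share windows with each other and with Scd3, and 0.974% for Elovl6. How such reads were counted is not stated.

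**Figure D1:**
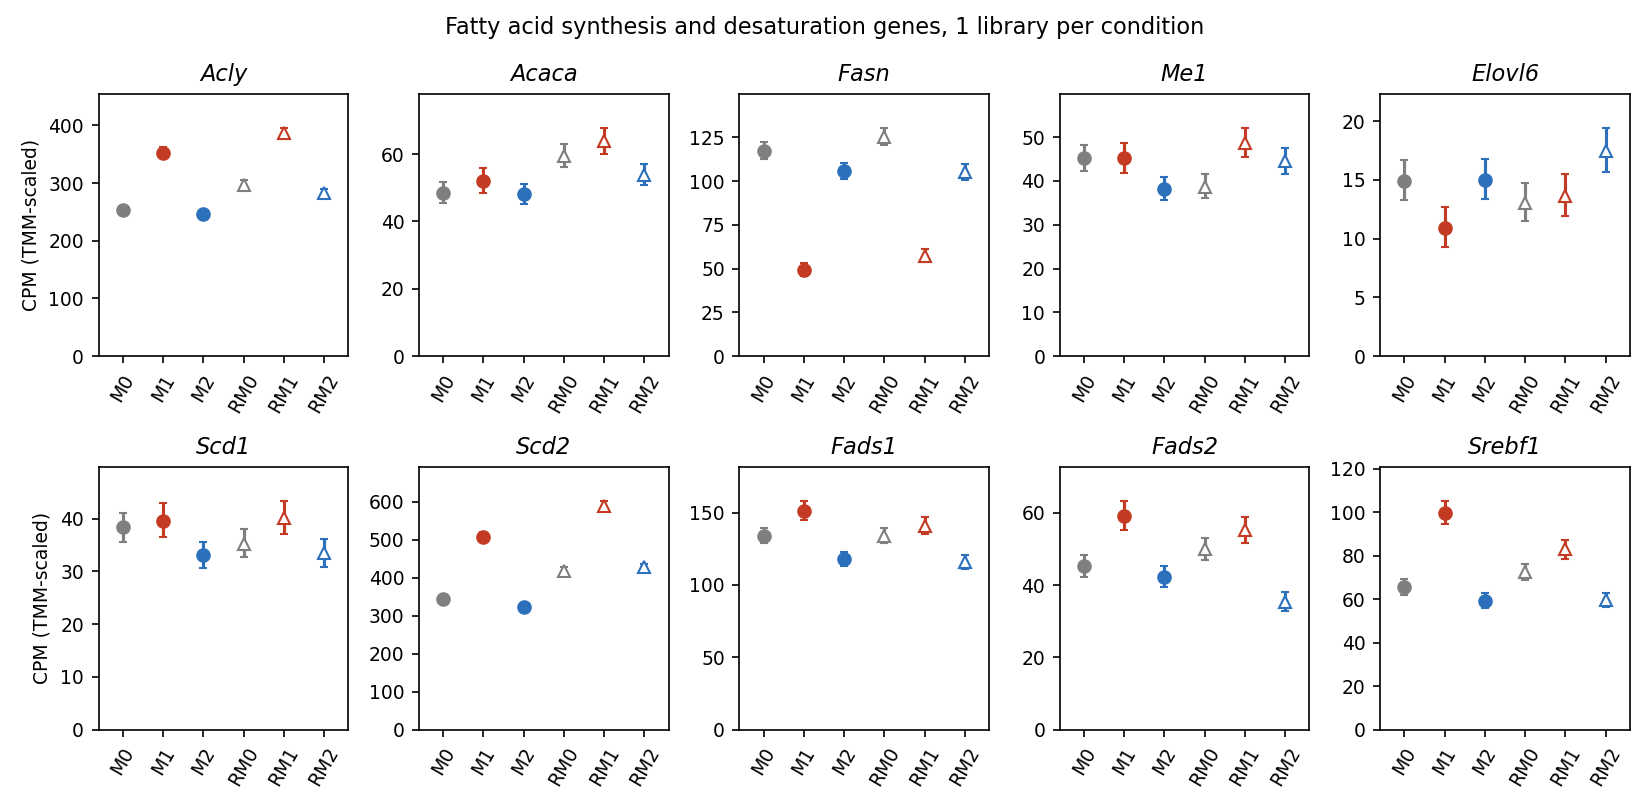
TMM-scaled CPM (vertical axes, each from 0) of the 10 genes in the 6 libraries, with filled circles for non-irradiated and open triangles for irradiated cells, grey for M0, red for M1 and blue for M2 states, and bars for the exact 95% interval of counting error. Fasn was at 49.4 in M1 and 57.3 in RM1 and between 105.2 and 125.3 in the other 4 libraries.

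Fasn, the multifunctional synthase that makes palmitate, lies on chromosome 11 (120805958 to 120824547, minus strand, mm10; NM_007988). It had 2329, 731, 2146, 2456, 955 and 2087 counts, or 117.4, 49.4, 105.8, 125.3, 57.3 and 105.2 CPM, the count relative to the TMM-scaled size of its library. M1 and RM1 were the lowest libraries, and their values did not overlap those of the other 4. Fasn was 2.37-fold lower in M1 than in M0 (log2 fold change -1.25, 95% counting interval -1.37 to -1.13) and 2.19-fold lower in RM1 than in RM0 (-1.13, -1.24 to -1.02), and these pairs share no library. In bulk RNA, fewer cells with the transcript and less of it per cell cannot be told apart. Calling a gene at a 2-fold difference with at least 10 counts in 1 library of the pair, 1 of the 10 genes was called in M1 against M0, where 22.7% of all genes were called and 13.3% were called lower. Again 1 of 10 was called in RM1 against RM0, where the shares were 14% and 7.87%. In both pairs the gene was Fasn. With the trend on transcript GC content removed, the RM1 difference was -0.93 and no longer reached 2-fold.

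With 1 library per condition, a test needed the other factor in place of replicates. The edgeR quasi-likelihood test with polarization and irradiation as additive terms over the 6 libraries gave a shared M1 effect of -1.19 on the log2 scale for Fasn (SE 0.123, Benjamini-Hochberg adjusted p = 3.684e-05). In that test 4 of the 10 genes passed an adjusted p of 0.05 (Fasn fell, and Acly, Scd2 and Srebf1 rose), against 47.6% of all 11574 genes tested (23.3% rose and 24.3% fell), so the share called in the group was near the background. The median effect was 0.14 over the 10 genes and -0.02 over all genes. The test assumes that the M1 effect is the same with and without irradiation, and it measures the spread between these libraries only.

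Acly, which supplies the acetyl-CoA, lies on chromosome 11 as well (100476352 to 100528000, minus strand, NM_134037). It had 5031, 5217, 4994, 5829, 6441 and 5595 counts (253.7, 352.8, 246.2, 297.5, 386.3 and 282.0 CPM), so that M1 and RM1 were the 2 highest libraries. Its log2 fold change was 0.48 (0.42 to 0.53) in M1 against M0 and 0.38 (0.33 to 0.43) in RM1 against RM0, and the shared M1 effect was 0.43 (SE 0.122, edgeR adjusted p = 0.01444). Without the M2 and RM2 libraries, the adjusted p was 0.09343 in the edgeR fit, which called 37.7% of all genes. The ratio of Fasn to Acly reads does not depend on the scaling of the libraries. It was 46.3, 14.0, 43.0, 42.1, 14.8 and 37.3 Fasn reads per 100 Acly reads, a mean of 14.4 in M1 and RM1 and of 42.2 in the other 4 libraries. The counting intervals of M1 (12.9 to 15.1) and RM1 (13.8 to 15.9) lay below those of all other libraries. These genes were set side by side after their values were seen, and the ratio was not tested.

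**Figure D2:**
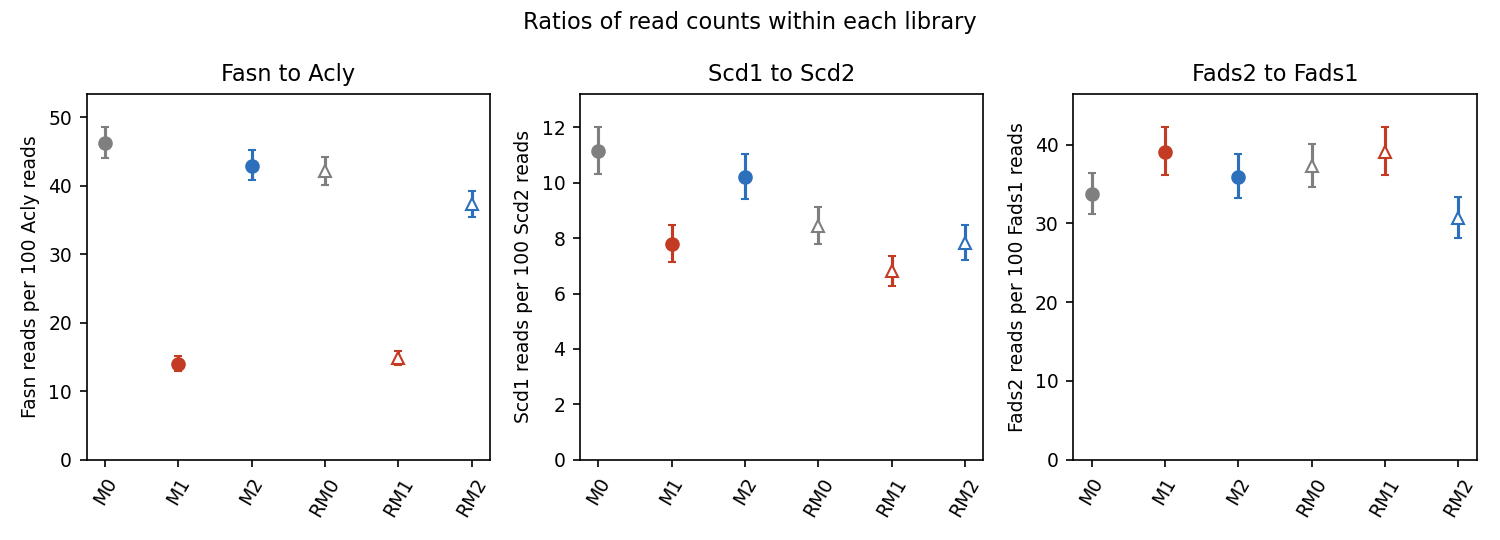
Read counts of one gene per 100 reads of another within each library (vertical axes from 0), with exact 95% counting intervals, colours and symbols by state and irradiation as in the plot of levels. Fasn per 100 Acly reads was 14.0 in M1 and 14.8 in RM1 against 37.3 to 46.3 elsewhere, and Scd1 per 100 Scd2 reads ranged from 6.80 (RM1) to 11.2 (M0).

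Acaca, whose product malonyl-CoA is the building block used by Fasn, had 963, 771, 975, 1164, 1065 and 1069 counts (chromosome 11, 84195438 to 84401651, plus strand). On the CPM scale it stood at 48.6, 52.1, 48.1, 59.4, 63.9 and 53.9, with the irradiated libraries on top. The M1 differences were small in both pairs, 0.10 each, with counting intervals that included 0, and the shared M1 effect was 0.10 (SE 0.121, edgeR adjusted p = 0.5029). Fasn reads per 100 Acaca reads were 94.8 in M1 and 89.7 in RM1, against 195.2 to 241.8 in the other libraries. Me1, the NADPH-forming malic enzyme, lies on chromosome 9, where the files list 86695673 to 86695914 (minus strand), 0.211% of the annotated gene. It had 897, 668, 774, 758, 811 and 884 counts. Its CPM values lay between 38.2 (M2) and 48.6 (RM1), its M1 effect was 0.16 (edgeR adjusted p = 0.3637), and no order of the conditions stood out.

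Scd2, the desaturase with the most reads in the group, lies on chromosome 19 (44293676 to 44306862, plus strand, NM_009128). It had 6818, 7520, 6567, 8191, 9834 and 8481 counts, or 343.7, 508.6, 323.8, 418.0, 589.8 and 427.5 CPM. M1 and RM1 were the highest, and each irradiated library was above its non-irradiated counterpart. The log2 fold change was 0.57 (0.52 to 0.61) in M1 against M0 and 0.50 (0.45 to 0.54) in RM1 against RM0, with a shared M1 effect of 0.53 (SE 0.128, edgeR adjusted p = 0.006273). Scd1, the better-known desaturase of liver and fat, lies in the same cluster on the other strand (44394450 to 44407709) and had 760, 586, 670, 691, 669 and 663 counts. Its CPM spanned 33.0 to 40.1, the narrowest range of the 10 genes on the log2 scale (0.28), and its shared M1 effect was 0.12 (edgeR adjusted p = 0.4554). Scd1 reads per 100 Scd2 reads were 11.2, 7.79, 10.2, 8.44, 6.80 and 7.82.

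Scd3 and Scd4, which were not in the group of 10 but lie with Scd1 and Scd2 within 204 kb of chromosome 19, had few reads and another pattern. Scd4 had 43, 53, 116, 179, 45 and 29 counts. It was 4.06-fold higher in RM0 than in M0 (log2 fold change 2.02, counting interval 1.59 to 2.59). It was also 2.56-fold higher in M2 than in M0, and 3.71-fold lower in RM2 than in M2. Its CPM was 9.14 in RM0, against 2.70 in RM1 and 1.46 in RM2. Scd3 had 44, 51, 60, 102, 80 and 32 counts and was 2.28-fold higher in RM0 than in M0 and 3.09-fold lower in RM2 than in RM0. RM0 was thus the highest and RM2 the lowest library for both genes, unlike Scd1 and Scd2. Neither passed the edgeR test for a shared effect. Of their transcripts' 100-base windows, 2.54% (Scd3) and 0.530% (Scd4) recur in another gene.

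**Figure D3:**
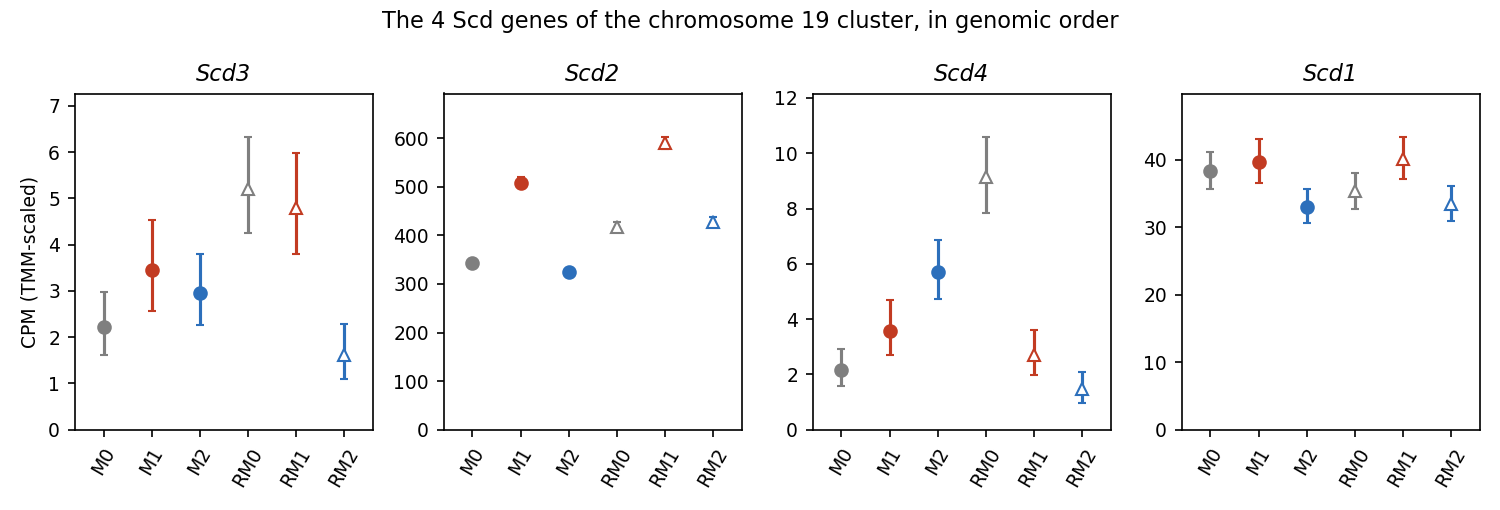
TMM-scaled CPM (vertical axes, each from 0) of the 4 Scd genes in their order along chromosome 19, with exact 95% counting intervals, colours and symbols by state and irradiation. Scd2 was highest in RM1 (589.8), Scd1 stayed between 33.0 and 40.1, and Scd3 and Scd4 were highest in RM0.

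Elovl6, which takes palmitate to stearate, was the least abundant member, with 296, 161, 304, 256, 227 and 347 counts (chromosome 3, 129532386 to 129638493, plus strand; 14.9, 10.9, 15.0, 13.1, 13.6 and 17.5 CPM). It was lower in M1 than in M0 (-0.45, -0.74 to -0.17) but not in RM1 against RM0 (0.06, -0.20 to 0.32), and the shared M1 effect of -0.20 did not pass the edgeR test (adjusted p = 0.3718). Its highest value was in RM2. The desaturases Fads1 and Fads2 lie with Fads3 within 155 kb of chromosome 19, Fads1 at 10191440 to 10196872 (plus strand) and Fads2 at 10064164 to 10101503 (minus strand). Fads1 had 2659, 2238, 2387, 2625, 2351 and 2292 counts and Fads2 had 897, 874, 857, 977, 919 and 703 counts. In CPM both were highest in M1 (151.4 and 59.1) and lowest in RM2 (115.5 and 35.4). Their shared M1 effects were 0.12 (edgeR adjusted p = 0.3968) and 0.26 (edgeR adjusted p = 0.1252). Fads2 reads per 100 Fads1 reads lay between 30.7 (RM2) and 39.1 (RM1).

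Srebf1 (chromosome 11, 60202762 to 60220604, minus strand, NM_011480) had 1299, 1475, 1201, 1419, 1381 and 1181 counts, or 65.5, 99.8, 59.2, 72.4, 82.8 and 59.5 CPM. M1 was the highest library and RM1 the next. The log2 fold change was 0.61 (0.50 to 0.72) in M1 against M0 and 0.19 (0.09 to 0.30) in RM1 against RM0, intervals that did not overlap. The shared M1 effect was 0.40 (SE 0.133, edgeR adjusted p = 0.02863), and without the M2 and RM2 libraries the adjusted p was 0.09563 in edgeR. The counts give 1 value per gene, so the forms of SREBP-1 were not told apart. The listed span covers 75.95% of the annotated gene, and which transcripts were counted is not stated. Rai1 on the opposite strand overlaps the annotated gene, but overlap with the listed span was not examined. The strand setting of the counting is not stated. Srebf2, whose product drives cholesterol synthesis, had 2365, 2939, 2194, 2719, 2681 and 2094 counts and rose likewise (shared M1 effect 0.47, edgeR adjusted p = 0.01667). Srebf1 reads per 100 Srebf2 reads stayed between 50.2 and 56.4.

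The rises in the M1 state depended on the scaling. M1 and RM1 had the lowest TMM factors (0.8004 and 0.8836, against 1.05 to 1.134 in the other libraries), and scaling by library totals moved the median of all genes from -0.03 to -0.46 in M1 against M0, where the share of higher among called genes went from 41.3% to 16.8%. That share also moved from 43.9% to 25.0% in RM1 against RM0, from 57.8% to 70.5% in RM1 against M1 and from 52.6% to 39.7% in RM2 against M2. By library totals, which called 50.5% of all genes, Fasn still passed the edgeR test (-1.53, adjusted p = 1.649e-04), but Acly (0.08, adjusted p = 0.5259), Scd2 (0.19, adjusted p = 0.1576) and Srebf1 (0.05, adjusted p = 0.7273) did not, and Acaca, Me1, Scd1, Fads1 and Fads2 turned to values below 0. In M1, Nos2 alone took 0.92% of the counts, against 0.0789% in M0. The part of such abundant M1 genes in the scaling was not tested.

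**Figure D4:**
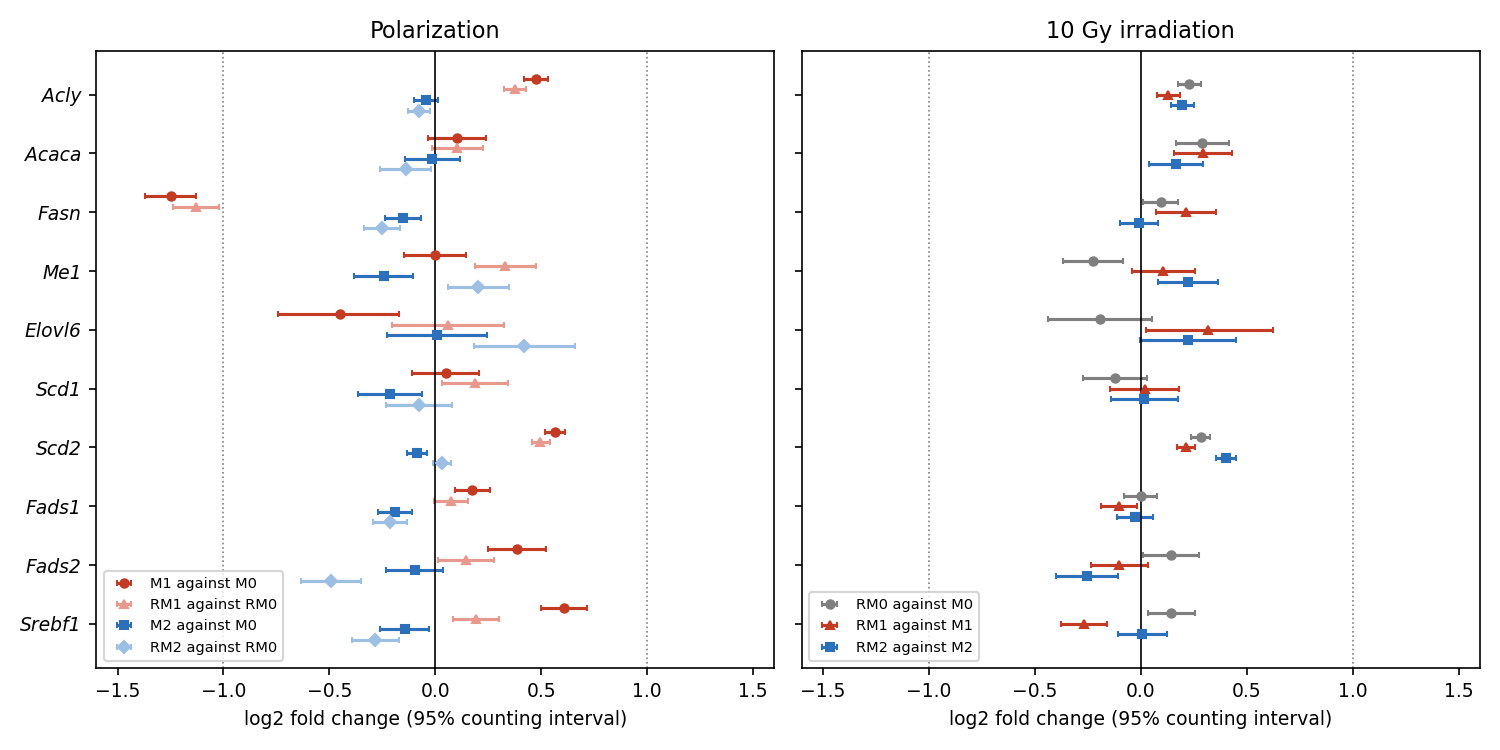
Log2 fold changes (horizontal axes) with 95% counting intervals of the 10 genes between pairs of libraries, for polarization (left; circles M1 against M0, triangles RM1 against RM0, squares M2 against M0, diamonds RM2 against RM0) and for irradiation (right; circles RM0 against M0, triangles RM1 against M1, squares RM2 against M2). Dotted lines mark 2-fold, which only Fasn passed, at -1.25 and -1.13.

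IL-4 brought small differences. In M2 against M0, 9 of the 10 genes had values below 0, where 48.96% of all genes were above 0, and they lay between -0.24 (Me1) and -0.01 (Acaca), and Elovl6 stood at 0.01. The counting interval lay below 0 for 6 of the 10 and included 0 for the other 4 (Acaca, Acly, Fads2 and Elovl6). None of the 10 was called at 2-fold, with a background of 1.44%. In RM2 against RM0, 7 had values below 0, where 49.69% of all genes were above 0, and the interval lay below 0 for 6, above 0 for 2 and included 0 for 2, the farthest being Fads2 (-0.49, -0.63 to -0.35), and Elovl6 the highest (0.42, 0.18 to 0.66). Again 0 of 10 were called, with a background of 2.61%. In edgeR, 0 of 10 passed for the shared M2 effect (background 0.19%), with 1 at an unadjusted p under 0.05, Fads2 (-0.30, SE 0.133, unadjusted p = 0.0483), as 10.1% of all genes had, and DESeq2 likewise called 0. The background was 11.5% (1322 genes) without the M1 and RM1 libraries and 0.0259% (3 genes) by library totals, with 0 members called in either.

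Irradiation changed no member by 2-fold either. The count of called members was 0 of 10 in RM0 against M0 (background 1.54%), in RM1 against M1 (background 5.34%, and 3.08% in the higher direction) and in RM2 against M2 (background 1.97%). Nonetheless Scd2, Acly and Acaca were higher after 10 Gy in all 3 states, with every counting interval above 0, which held for 3 of the 10 members and for 4.9% of the 11574 genes. Counting intervals are narrower for genes with more reads, and this share was not matched for read count, so an excess among the members was not tested. For Scd2 the log2 fold changes were 0.28 (0.24 to 0.33) in M0, 0.21 (0.17 to 0.26) in M1 and 0.40 (0.35 to 0.45) in M2 cells. For Acly they were 0.23, 0.13 and 0.20, and for Acaca 0.29, 0.29 and 0.16. No member was lower in all 3 with every interval below 0, as 3.27% of the genes were. The shared irradiation effects in edgeR were 0.30 for Scd2 (SE 0.105, adjusted p = 0.2322), 0.25 for Acaca (SE 0.0985, adjusted p = 0.2826) and 0.19 for Acly (SE 0.0993, adjusted p = 0.408). Thus 0 of 10 passed, with a background of 0.475%, 2 had an unadjusted p under 0.05 (Scd2 and Acaca), as 14.7% of all genes had, and DESeq2 also called 0. Without the M1 and RM1 libraries, Scd2 passed (0.35, edgeR adjusted p = 0.009329), in a fit that called 4.56% of all genes. Fasn moved by 0.09 (0.01 to 0.18) in M0, 0.21 (0.07 to 0.35) in M1 and -0.01 (-0.10 to 0.08) in M2 cells. Its lower level in M1 cells was still present after irradiation.

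With TMM scaling, other genes of the pathway gave a mixed picture in the M1 state. The list on acetyl-CoA and malonyl-CoA supply also holds genes that use or break down these units and mitochondrial fatty acid synthesis. Of its 10 tested genes, 2 rose and 4 fell (median -0.18), where 23.3% of all genes rose and 24.3% fell. Those that rose supply cytosolic acetyl-CoA: the citrate carrier Slc25a1 (1182, 1727, 1038, 1232, 1456 and 1001 counts, shared M1 effect 0.73, edgeR adjusted p = 0.001923) and the acetyl-CoA synthetase gene Acss2 (0.68, edgeR adjusted p = 0.003088). Those that fell were Oxsm (215, 39, 228, 199, 90 and 245 counts, -1.40, edgeR adjusted p = 0.001268) and Mecr (-0.52), both of mitochondrial fatty acid synthesis, Mlycd (-0.82), whose product breaks malonyl-CoA down, and the acetoacetyl-CoA synthetase gene Aacs (-0.55). Acss2, Mecr, Mlycd and Aacs were named after their values were seen. Mid1ip1, which activates acetyl-CoA carboxylase, did not pass and had 1722 counts in M1 against 1618 in M0. Of 13 tested NADPH genes, 1 rose and 4 fell (median -0.12). G6pdx and Tkt, the most abundant, did not pass, whereas Pgd of the pentose phosphate pathway fell by 0.62 (edgeR adjusted p = 0.001926), which was named after its values were seen.

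Of 10 tested elongation genes other than Elovl6, 2 rose and 2 fell (median -0.11, against a background of 23.3% rising and 24.3% falling). The elongase Elovl3 fell from 65 to 6 counts in M1 (shared M1 effect -2.05, edgeR adjusted p = 0.002722), and the dehydratase gene Hacd1, listed as Ptpla, rose from 201 to 404 counts (1.33, edgeR adjusted p = 2.774e-04). Elovl4 had 20 counts or fewer, and Elovl1 and Hsd17b12, the most abundant, did not pass. Of 8 other desaturases and electron carriers, 1 rose and 1 fell (median -0.11). Cyb5a, which encodes cytochrome b5, the electron donor of the desaturases, rose (1183, 1597, 1211, 1270, 1671 and 1489 counts, 0.75, edgeR adjusted p = 0.00119), and was named after its values were seen. Cyb5r1, which is related to the reductase that feeds electrons to cytochrome b5, fell (3812, 1677, 4109, 3537, 1462 and 3392 counts, -0.90, edgeR adjusted p = 2.311e-04). Cyb5b did not pass, and the desaturase-like Fads6 had 129 counts in RM0 and 53 in RM1, a 2.04-fold difference.

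Among 16 tested genes of the SREBP, ChREBP and LXR regulators, 4 rose and 4 fell (median -0.04, against the background of 23.3% and 24.3%). Insig1, which holds SREBP precursors in the endoplasmic reticulum and is itself an SREBP target, rose (240, 459, 229, 206, 314 and 253 counts, shared M1 effect 1.12, edgeR adjusted p = 0.001135), and Nr1h3, which encodes LXRα, fell (76, 24, 61, 81, 44 and 70 counts, -0.91, edgeR adjusted p = 0.01996). In the list of LXR targets, 3 of 9 rose and 1 fell (median 0.11). Among 21 genes of cholesterol synthesis and uptake, which SREBP-2 controls, 11 rose and 1 fell with TMM scaling (median 0.38). Of all genes, 23.3% rose and 24.3% fell. By library totals the median of all genes was -0.46 in M1 against M0, and values of this list by totals are not given here. Fdps, which makes farnesyl diphosphate, had 1094, 1716, 1049, 961, 1255 and 794 counts and rose (0.85, edgeR adjusted p = 6.261e-04), as did Tm7sf2, a sterol reductase gene (0.85, edgeR adjusted p = 0.009744), while the abundant Msmo1 did not pass.

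Of 17 tested acyl-CoA synthetase and glycerolipid genes, 3 rose and 4 fell (median 0.11, background 23.3% and 24.3%). Acsl3 rose (1.01, edgeR adjusted p = 2.684e-04), as did Acsl4, the most abundant, which had 6528, 6484, 6753, 8011, 12436 and 11137 counts (0.64, edgeR adjusted p = 0.005316). Dgat2, which makes triglyceride, fell from 110 to 32 counts in M1 (-0.90, edgeR adjusted p = 0.0223), and Lpin3 fell from 39 to 13 (-1.17, edgeR adjusted p = 0.01695). Gpat4 did not pass. Of 20 tested fatty acid oxidation genes, 5 rose and 5 fell (median -0.01), near the 23.3% and 24.3% of all genes, with Acadl the farthest (0.91, edgeR adjusted p = 1.808e-04) and the abundant Hadha at 0.34 (edgeR adjusted p = 0.03156). The median over all genes was -0.02, and with TMM scaling, among the 9 lists of other pathway genes, cholesterol synthesis was the only one whose median lay more than 0.2 from 0.

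**Figure D5:**
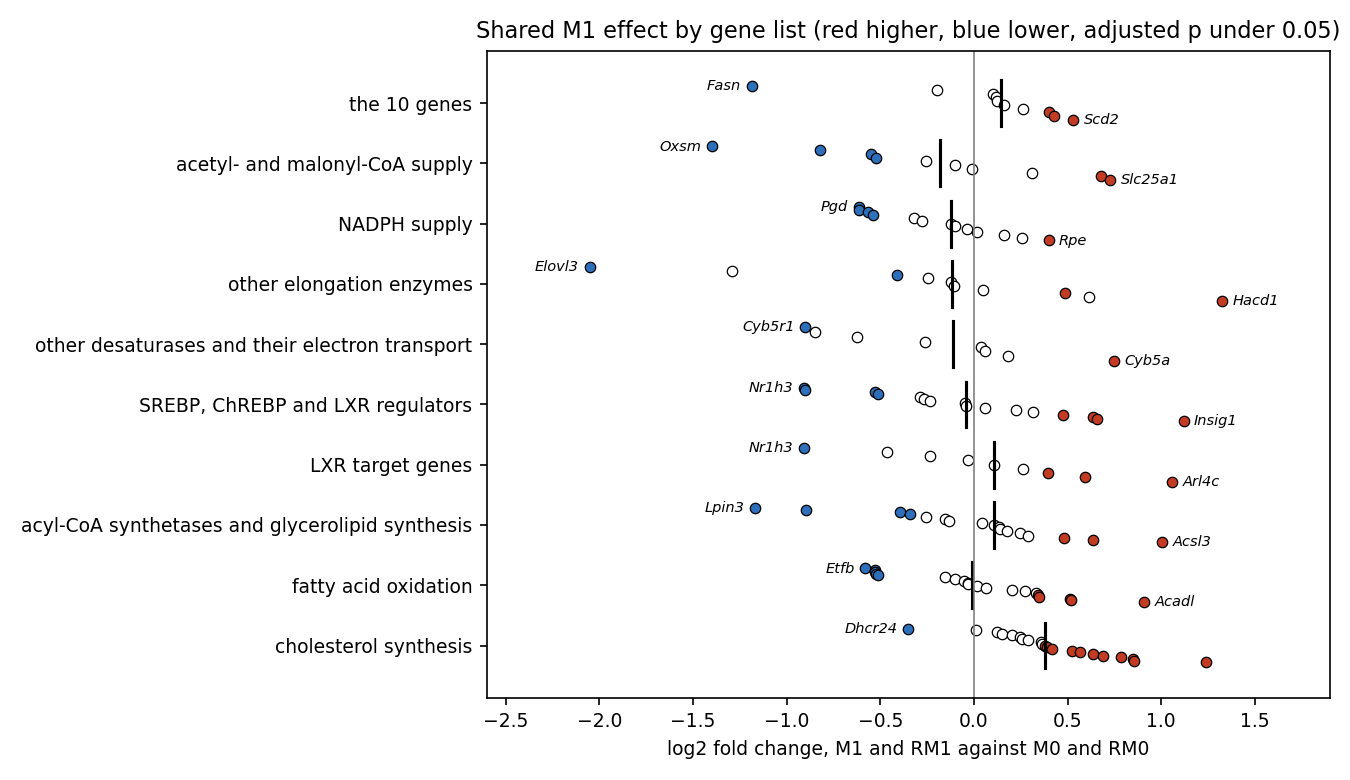
Shared M1 effect from the edgeR fit (horizontal axis, log2 fold change of M1 and RM1 against M0 and RM0) for each tested gene of the 10 genes and of 9 other lists, with red and blue for genes with a Benjamini-Hochberg adjusted p under 0.05, white for the rest, and a vertical line at each list's median. Fasn (-1.19) stands apart from the other 9 members, which lie between -0.20 and 0.53.

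For irradiation, 1 gene of these pathway lists passed the shared test (background 0.475%), the cholesterol exporter and LXR target Abca1, with 2376, 883, 2096, 4392, 3810 and 4703 counts (1.34, SE 0.165, edgeR adjusted p = 0.007538). All 3 irradiated libraries were above all 3 non-irradiated ones. For IL-4 the only gene of these lists that passed (background 0.19%) was Arl4c, another LXR target, with 16, 28, 91, 23, 37 and 176 counts (shared M2 effect 2.71, edgeR adjusted p = 0.007915). The abundant LXR target Abcg1 rose in the M1 state (0.59, edgeR adjusted p = 0.003834) and passed neither for irradiation nor for IL-4.

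Genes whose pattern was most like that of a member were sought by Pearson's r of log2 CPM over the 6 libraries among the 3099 genes that averaged 50 counts or more and spanned 1 log2 unit or more, for the 3 members with the widest range. For Fasn they were Wdr45, Pnpla7, Mccc2, Sun2 and Lyl1 (r from 0.9967 to 0.9989). Pnpla7, a lysophospholipase, had 1242, 391, 1138, 1236, 494 and 1119 counts. For Scd2 they were Rdh11, Gatsl2, Hist2h2bb, Dapk1 and Pdpn (r from 0.9845 to 0.9927), and among the members Acly was at 0.98. For Srebf1 they were Rplp0, Mrpl14, Fau and Gltscr2 (r from 0.997 to 0.9979), which include ribosomal protein genes. These values describe 6 points that share the M1 difference, and such high values are given without a test.

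Markers of other cells were few. Of 6 hepatocyte markers 5 were at 0 in all libraries (Alb, Apoa1, Cyp7a1, Serpina1a and Ttr) and the remaining Fgb had at most 2 counts. Of 7 T and B cell markers 5 were at 0, and Cd79a, the most abundant, had at most 4 counts. Of 7 adipocyte markers Adipoq, Cfd, Cidec and Lep were at 0, Plin1 had at most 1 count, and the lipase gene Lipe, also used by macrophages, made up most of the list's sum. The fibroblast list moved with the M1 state, summing to 6.71, 43.8, 7.10, 8.98, 45.9 and 10.3 CPM. Nearly all of this was Dcn (113, 627, 114, 145, 726 and 177 counts), while the defining collagens Col1a2 and Col3a1 were at 0 and Col1a1 at 11 counts or fewer. Both tested genes of this list rose in the M1 state, Dcn (2.73, edgeR adjusted p = 1.943e-06) and Lum (8, 14, 16, 10, 34 and 14 counts, 1.68, edgeR adjusted p = 0.01215). Of the adipocyte list Retn rose (17, 22, 12, 10, 39 and 13 counts, 1.47, edgeR adjusted p = 0.01467). Their part in the M1 results was not tested.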

How the data were processed

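Total RNA of RAW264.7 cells was sequenced by the authors, who deposited raw HTSeq counts per gene on mm10, 1 library per condition; the submitters' processing notes name Trimmomatic 0.36, HISAT2 2.2.1 and HTSeq 0.11.3. Counts were scaled by TMM in edgeR 4.0.16 (R 4.3.3). The quasi-likelihood test used additive polarization and irradiation terms over 6 libraries (2 residual degrees of freedom), genes that reached 10 counts in 3 libraries or more, and Benjamini-Hochberg adjustment. It was tested on simulated data, but those results are not given here. Pairs of libraries had no test: a prior count of 2 was added, and log2 fold changes had exact Clopper-Pearson 95% intervals that cover counting error only. DESeq2 1.42.0, other scalings, filters, thresholds and models, and a GC correction added after seeing the data were alternatives. Totals ranged from 17894937 to 18870516 counts. Members and gene lists were chosen with earlier results of these data known. From each pathway list, the genes named were those called at 2-fold in any of 7 pairs, and the 2 most abundant, with exceptions said where they are named; the marker and label-check lists are named in part. Listed symbols that had been renamed were matched through RefSeq synonyms. Motifs were searched on both strands. Some genes that this rule names are not reported here.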

Additional observations from a re-analysis of the deposited data

Results flagged for a closer look

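For 3 of the 10 genes the irradiation difference went one way in one state and the other way in another, with counting intervals away from 0 on both sides. Me1 was higher in RM2 than in M2 (log2 fold change 0.22) and lower in RM0 than in M0 (-0.22). Fads2 was higher in RM0 than in M0 (0.14) and lower in RM2 than in M2 (-0.25). Srebf1 was higher in RM0 than in M0 (0.14) and lower in RM1 than in M1 (-0.27). Each value comes from 1 library against 1, and the difference between the states was not tested.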

How the results depend on the processing

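No replicate block could be fitted because each condition had 1 library; the polarization term of the edgeR model sets each irradiated library against the non-irradiated one of its state. Of 280 pair values of members under the alternatives, 232 stayed within their counting interval and 48 moved. Of 230 shared-effect values, 210 kept direction and call, 13 were reversed, 5 were weaker and 2 were stronger. The stronger values were 1 with the GC trend removed and 1 without the M1 and RM1 libraries. At a 1.5-fold threshold the calls over all genes were 5268 (M1 against M0, 2673 at 2-fold), 582 (M2 against M0, 169), 696 (RM0 against M0, 180), 2036 (RM1 against M1, 611), 848 (RM2 against M2, 232), 3816 (RM1 against RM0, 1644) and 1211 (RM2 against RM0, 307), and 2 members were called in M1 against M0. Without the filter on counts they were 427, 434, 1229, 510 and 598 in M2 against M0, RM0 against M0, RM1 against M1, RM2 against M2 and RM2 against RM0. With the GC trend removed, 0 members were called in RM1 against RM0. For the shared irradiation effect (55 genes in edgeR) the count was 3 by library totals, 156 without the filter, 114 in DESeq2, 24 with the GC trend removed and 0 without the polarization term (138 at an unadjusted p under 0.05); leaving out 1 state at a time gave 79 to 522 genes and 0 to 1 members. For the shared M2 effect (22 genes) it was 3, 56, 41, 6 and, without the irradiation term, 0 (621 at an unadjusted p under 0.05), and 1322 without M1 and RM1. Members that passed for the shared M1 effect (4, with 47.6% of all genes called) were 1 by library totals (50.5%) and 2 without M2 and RM2 (37.7%). Signs turned by library totals in the shared M1 effect for Acaca (-0.24), Me1 (-0.19), Scd1 (-0.23), Fads1 (-0.22) and Fads2 (-0.081), and in the shared M2 effect for Me1 (0.031) and Scd2 (0.032). In the shared irradiation effect they turned with the GC trend removed for Me1 (-0.0063) and Srebf1 (0.053), and leaving out 1 state at a time gave -0.054 to 0.17 for Me1, -0.045 to 0.020 for Scd1, -0.17 to 0.026 for Fads2 and -0.13 to 0.084 for Srebf1. The causes were not tested. Elovl6, with 161 to 347 counts, had the widest counting intervals of the 10 genes.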

Other observations

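Outside the lipid lists, the macrophage markers moved in several directions in the M1 state. Of 7 tested, 2 rose and 2 fell in the shared M1 effect, where 23.3% of all genes rose and 24.3% fell: the Fcγ receptor gene Fcgr1 (978, 5200, 891, 1000, 4628 and 646 counts in M0, M1, M2, RM0, RM1 and RM2; 2.63, edgeR adjusted p = 6.979e-07) and Adgre1, which encodes F4/80 and is listed as Emr1 (1.82, edgeR adjusted p = 8.357e-06), rose, and the CSF1 receptor gene Csf1r (-1.07, edgeR adjusted p = 1.101e-04) and Lyz2 (-0.82, edgeR adjusted p = 0.007396) fell. Itgam did not pass. Of 8 genes of the M1 label check 7 rose, Tnf being the exception, and Irf1 had 419, 8628, 405, 404, 1710 and 343 counts. Of 8 genes of the M2 label check 3 were tested, and the shared M2 effect passed for 0 in edgeR (0 at an unadjusted p under 0.05); in the M1 state Mrc1 and Socs1 rose and Ccl22 fell.

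Of 9 p53 target genes, 1 rose with irradiation, Ccng1 (2437, 2332, 2710, 3647, 5611 and 4416 counts; shared irradiation effect 0.81, edgeR adjusted p = 0.01463), with a background of 0.475%, and 5 had an unadjusted p under 0.05, as 14.7% of all genes had. Phlda3 had 233, 56, 231, 402, 192 and 313 counts, and the abundant Cdkn1a and Mdm2 did not pass for irradiation. In RM1 against M1, 4 of the 9 were at least 2-fold higher (Ccng1, Phlda3, Trp53inp1 and Eda2r), as were 3.08% of all genes.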
